A study of Mus musculus with 3 samples.

Results

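The mitochondrial ribosome was followed through the genes whose symbols start with Mrpl (large subunit names) or Mrps (small subunit names) and a number. That rule found 110 probes for 76 genes, among 16593 named genes on the array, with 47 genes of the large subunit names (68 probes) and 29 of the small subunit names (42 probes). The RNA came from GFP-labelled 4T1 cells, a mouse mammary carcinoma line that spreads to lung, grown in the mammary pad of female Balb/C mice of 10 to 12 weeks. All groups carry GFP and the same line, and they differ in the place from which the cells were sorted by flow cytometry: metastatic loci in lung (MCC), systemic circulation (CCC) and the primary breast tumour (PCC). Each group is 1 array, the labels do not say how many mice stand behind it, and no group has a replicate, so every difference below compares 2 arrays and has no p-value or replicate check.

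Mitochondria make the core subunits of their respiratory chain on their own ribosome, which reads the few messages of the mitochondrial genome. Its RNAs come from that genome, but all of its proteins are encoded in the nucleus, made in the cytosol and imported. The small subunit binds the messenger and decodes it, and the large subunit joins the amino acids and holds the exit tunnel. Some of the proteins have counterparts in bacteria, and others were added in mitochondria. The series title names mitochondrial biogenesis and oxidative phosphorylation as the subject, which is the question the mitoribosomal genes bear on. The names are not a perfect guide to place, since the products of Mrps30 and Mrps18a sit in the large subunit of the mammalian structure and that of Mrps36 has since been assigned to the oxoglutarate dehydrogenase complex.

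Of all 25697 probes, 44.0% on MCC, 44.6% on CCC and 41.0% on PCC were detected, meaning a deposited detection p under 0.01. Mean deposited intensity was 232 on MCC, 462 on CCC and 410 on PCC, so MCC was the dimmest array before scaling. Markers of several other cell types also separated the arrays. Of 9 measured fat genes 7 were detected on MCC, 1 on CCC and 0 on PCC, with summed deposited intensities of 22295 on MCC, 198 on CCC and 12 on PCC. The 9 measured lymphocyte genes summed to 11024 on MCC, 3411 on CCC and 474 on PCC, with 8, 6 and 3 detected, and the 10 measured macrophage genes to 5867, 30071 and 5159, with 9, 9 and 8 detected. After normalization, 5 of 8 macrophage genes detected on both MCC and PCC were lower on MCC and 3 higher, with a median log2 difference of -0.50. The 9 endothelial genes summed to 8009, 3093 and 1078, with 8, 8 and 5 detected, and the 17 measured cell cycle genes to 2314, 20886 and 18794. Sums of the 10 fibroblast genes were closer, at 10731 on MCC, 14765 on CCC and 12994 on PCC. The 8 measured neutrophil genes summed to 2555, 3268 and 4479, and ran from S100a9 at -4.89 to Ltf at 5.69 for MCC minus PCC (log2). The 4 measured red blood cell genes summed to 3929, 1267 and 1348. Of 10 measured lung epithelium genes, 5 were detected on MCC, 2 on CCC and 2 on PCC, with summed intensities of 1550 on MCC, 1429 on CCC and 711 on PCC. Sftpd, Ager and Cyp2f2 were detected only on MCC, Abca3 and Aqp5 were higher there than on PCC by 1.76 and 1.47 (log2), and Sftpc, Sftpb, Sftpa1, Scgb1a1 and Hopx were detected on no array. Of the epithelial markers, Cdh1 and the simple epithelium keratins Krt8 and Krt18 were detected on all 3. Of 7 measured epithelial genes, 7 were detected on MCC, 3 on CCC and 4 on PCC. Krt19, Cldn7 and Esrp1 were detected on MCC alone. Over the 4 genes compared for MCC minus PCC, 3 were higher on MCC and 1 lower, from Krt8 at -0.83 to Cldn4 at 4.68 (log2). The part of these differences in the mitoribosomal values was not tested, and on bulk arrays fewer cells of a type and less RNA per cell cannot be told apart.

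The promoters of the genes that lay furthest apart between MCC and PCC in each subunit are shown first. They are the lowest and the highest gene of each subunit among those with an entry in the RefSeq promoter table (GRCm38.p6), which holds 67 of the 76 genes. Mrpl13 and Mrps34, which lay furthest of all, are not among them. Each run covers 150 bases before to 30 after the annotated start, 5′ to 3′ on the gene's strand, and all 4 genes are on the plus strand. Capitals mark letters that match a searched motif on either strand.
Mrpl1 (large, lowest, chr5:96209965-96210144): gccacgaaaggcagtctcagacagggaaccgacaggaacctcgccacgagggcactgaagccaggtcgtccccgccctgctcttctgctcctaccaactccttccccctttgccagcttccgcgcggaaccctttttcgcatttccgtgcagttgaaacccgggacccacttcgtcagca
Mrpl36 (large, highest, chr13:73330859-73331038): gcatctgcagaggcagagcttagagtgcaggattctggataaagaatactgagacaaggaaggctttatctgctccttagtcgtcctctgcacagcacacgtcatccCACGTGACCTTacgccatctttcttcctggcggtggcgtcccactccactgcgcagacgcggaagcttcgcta
Mrps5 (small, lowest, chr2:127587276-127587455): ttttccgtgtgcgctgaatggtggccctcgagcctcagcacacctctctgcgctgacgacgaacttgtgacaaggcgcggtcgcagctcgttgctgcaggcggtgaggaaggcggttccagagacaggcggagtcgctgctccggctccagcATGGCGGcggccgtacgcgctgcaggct
Mrps23 (small, highest, chr11:88204238-88204417): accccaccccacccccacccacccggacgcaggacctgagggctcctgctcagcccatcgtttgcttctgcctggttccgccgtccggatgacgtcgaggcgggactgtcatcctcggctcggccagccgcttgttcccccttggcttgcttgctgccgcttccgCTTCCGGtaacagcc

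The 5 motifs searched over both strands were CCGGAAG of the ETS family, GCGCATG (a part of the NRF1 site), ATGGCGG of YY1, the E-box CACGTG and AAGGTCA (a part of the site of estrogen-related receptors). NRF1 and the ETS factor GABP are known regulators of nuclear genes for mitochondrial proteins, and estrogen-related receptors are partners of PGC-1α. Over the table's whole windows, 250 bases before to 50 after the start, the ETS letters were in 26 of 73 mitoribosomal promoters (35.6%), against 8.86% of all 32851 promoters. The YY1 letters were in 13 (17.8%, against 4.05% of all) and the NRF1 letters in 8 (11.0%, against 3.91%). The E-box was in 7 (9.59%, against 7.15%) and the receptor letters in 4 (5.48%, against 4.72%). By subunit, the ETS letters were in 15 of 46 large and 11 of 27 small subunit promoters, the YY1 letters in 7 and 6, the NRF1 letters in 7 and 1, the E-box in 6 and 1 and the receptor letters in 2 and 2. In the printed stretches, Mrps23 holds an ETS match and Mrps5 a YY1 match, both after the start. Mrpl36 holds an E-box that overlaps a receptor match, and Mrpl1 holds none of the 5. A match is a description of letters and does not show that a factor binds.

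Most of the complex was above background everywhere. Of the 76 genes, 65 (85.5%) were detected on all 3 arrays, against 40.7% of all named genes. The small subunit was measured either on all arrays (27 genes) or on none (Mrps14 and Mrps36). The large subunit had 38 genes on all arrays, 5 on some and 4 on none, the last being Mrpl19, Mrpl21, Mrpl32 and Mrpl45. Of the 5 partly detected genes, Mrpl15, Mrpl35, Mrpl39 and Mrpl51 missed detection only on MCC, and Mrpl57 was detected only on CCC. All 5 were dim. Mrpl35 missed narrowly, with a detection p of 0.0138 on MCC, 0 on CCC and 0.0025 on PCC, and Mrpl51 with 0.0125 on MCC, 0 on CCC and 0.0025 on PCC. Another probe of Mrpl51 was detected on MCC and CCC, at 5.76 and 5.75 (log2). Levels below are log2 intensities after background correction and quantile normalization, the unit of every difference too.

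**Figure D1:**
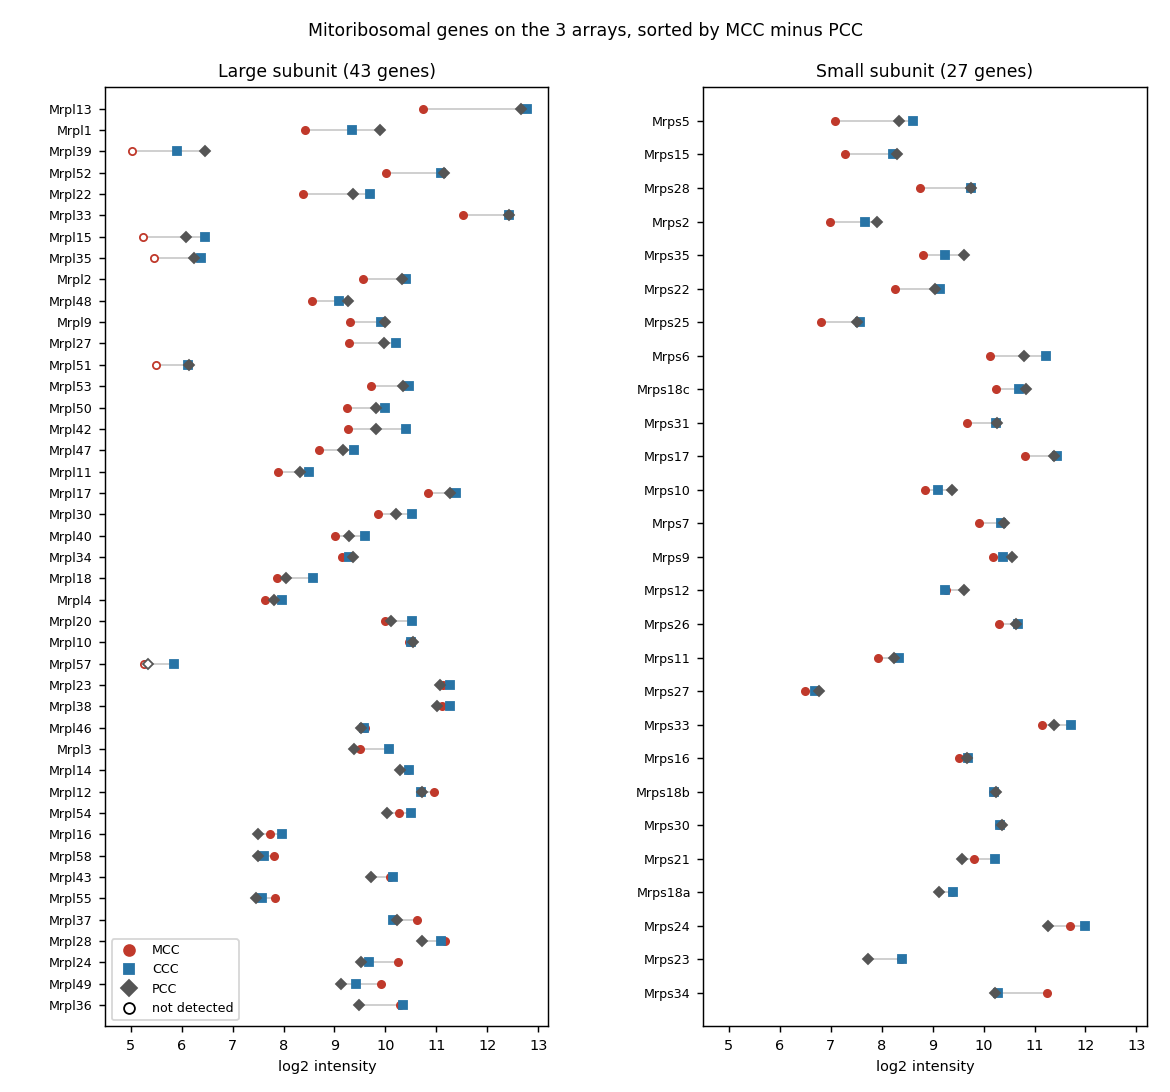
Log2 intensity (horizontal axis) of the 70 mitoribosomal genes detected on at least 1 array, 1 row per gene, with MCC as circles, CCC as squares and PCC as diamonds, and open marks where a gene was not detected. Rows run from the lowest to the highest MCC minus PCC difference, and in the upper rows, such as Mrpl13 at 10.74 on MCC against 12.78 on CCC and 12.67 on PCC, the MCC mark stands alone on the left.

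Over the 3 arrays the common pattern was a maximum on CCC and a minimum on MCC. Of the 65 genes detected throughout, 9 (13.8%) were highest on MCC, 37 (56.9%) on CCC and 19 (29.2%) on PCC. For all 6753 genes detected throughout, the shares were 37.9% on MCC, 22.9% on CCC and 39.2% on PCC. The lowest value was on MCC for 43 of the 65 genes (66.2%), on CCC for 3 (4.6%) and on PCC for 19 (29.2%), against 47.1% on MCC, 28.6% on CCC and 24.3% on PCC for all genes. In the large subunit 24 of 38 genes were highest on CCC, 8 on MCC and 6 on PCC. In the small subunit CCC and PCC held the maximum of 13 genes each, and MCC of 1, Mrps34. Scaling moves these counts. CCC held the maximum of 31 of 65 genes when arrays were scaled by the 75th percentile of detected probes (47.7%, against 21.5% of all genes). Without normalization it held that of 60 (92.3%, against 53.1% of all genes).

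The comparison of metastatic with primary tumour cells asks what differs between the lung and the site of origin. Small subunit genes were mostly somewhat lower on MCC, and large subunit genes were divided much as all genes were. Of 27 small subunit genes, 22 were lower and 5 (18.5%) higher, against 43.4% higher of all genes. Their median log2 difference was -0.37, with quartiles of -0.68 and -0.11. Of 38 large subunit genes, 22 were lower and 16 (42.1%) higher, with a median of -0.17 and quartiles of -0.61 and 0.23. The median of all 6829 genes detected on both arrays was -0.16, with quartiles of -0.85 and 0.53, so the large subunit lay at the level of all genes and the small subunit under it. Over 11 alternatives the large subunit median lay between 0.17 under and 0.02 above that of all genes, and the small subunit median between 0.18 and 0.44 under it. The median of the large subunit was 0.20 above that of the small one, and between 0.09 and 0.34 above it under every alternative run.

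Few members were 2-fold apart. Of the 65, 1 was at least 2-fold higher on MCC, against 14.2% of all genes, and 5 at least 2-fold lower, against 21.1%. These counts are smaller shares than those of all genes in both directions. The counts change with the scaling, and the order on the lower side rests on the arrays being normalized. With 75th percentile scaling over all probes, 10 of the 65 members and 1637 of all 6829 genes were at least 2-fold lower. Without normalization 33 of the 65 members and 2745 of all 6829 genes were at least 2-fold lower, so the members' share was then the larger, and the 1 higher gene was under 2-fold by every other way of scaling. On the same arrays 12 cell cycle genes had a median log2 difference of -2.49, and their part in the mitoribosomal values was not tested.

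Mrpl13, a large subunit protein with a bacterial counterpart, had the widest gap. Its log2 intensity was 10.74 on MCC, 12.78 on CCC and 12.67 on PCC, 3.81-fold lower on MCC than on PCC. A second detected probe gave a log2 difference of -2.65, and the sign was the same under every alternative. Mrpl1, counterpart of the bacterial protein of the mobile stalk beside the exit site of transfer RNA, read 8.43 on MCC, 9.35 on CCC and 9.90 on PCC. It was 2.78-fold lower on MCC and also had the lowest CCC minus PCC difference of the large subunit. Mrpl52, a protein found only in mitochondria, read 10.02 on MCC, 11.08 on CCC and 11.16 on PCC, 2.20-fold lower on MCC. Mrpl33, a small protein with a bacterial counterpart, read 11.52 on MCC, 12.43 on CCC and 12.42 on PCC, a log2 difference of -0.91 for MCC minus PCC. Its second probe gave -1.10, past 2-fold, and the lowest value over the alternatives was -1.91.

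In the small subunit, Mrps5 and Mrps15 had the lowest MCC minus PCC differences. Mrps5, whose bacterial counterpart lies by the channel of the messenger, read 7.07 on MCC, 8.62 on CCC and 8.35 on PCC, 2.42-fold lower on MCC than on PCC. Its second probe gave -0.39 in place of -1.28. Mrps15 read 7.28 on MCC, 8.23 on CCC and 8.30 on PCC, 2.03-fold lower on MCC, with 1 probe. Mrps28 was 1.99-fold lower, just inside the 2-fold size, and Mrps2 was lower by 0.92 on the log2 scale. Mrps22, a mitochondria-specific protein whose human gene is mutated in combined respiratory chain deficiency, was lower by 0.78.

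Some genes stood apart on the high side. Mrps34, a mitochondria-specific protein that in human cells is needed for a stable small subunit, read 11.24 on MCC, 10.28 on CCC and 10.22 on PCC. It was 2.03-fold higher on MCC, the only member past the 2-fold size in that direction, and its log2 difference was 0.09 without normalization, the smallest value over the alternatives. Mrpl36, counterpart of the smallest bacterial large subunit protein, read 10.28 on MCC, 10.35 on CCC and 9.48 on PCC, 1.74-fold higher on MCC, with a log2 difference of -0.03 without normalization. Mrpl49 was higher by 0.79 and Mrpl24, by the exit tunnel, by 0.72. Both were lower on MCC under at least 1 alternative, Mrpl49 at -0.26 with its probes averaged and Mrpl24 at -0.09 without normalization. The value of 0.79 rests on the brightest of 4 Mrpl49 probes. The others were dim, were detected on CCC alone and went the other way, at -0.24, -1.08 and -0.50. Mrps23 was higher by 0.65 and kept its sign throughout.

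Members detected on PCC and not on MCC can only be bounded. Mrpl39, a mitochondria-specific protein near the exit site, was at least 1.81-fold lower on MCC, with log2 intensities of 5.03 on MCC, 5.91 on CCC and 6.46 on PCC. Bounds for the other 3 were smaller, at least 1.57-fold lower for Mrpl35, 1.45-fold for Mrpl51 and 1.40-fold for Mrpl15. The bound for Mrpl51 holds for its brightest probe alone, since the probe detected on MCC read 5.76 there and 5.69, not detected, on PCC. All 4 lie near the lowest detected log2 intensity of 5.60 on MCC and 5.88 on PCC.

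**Figure D2:**
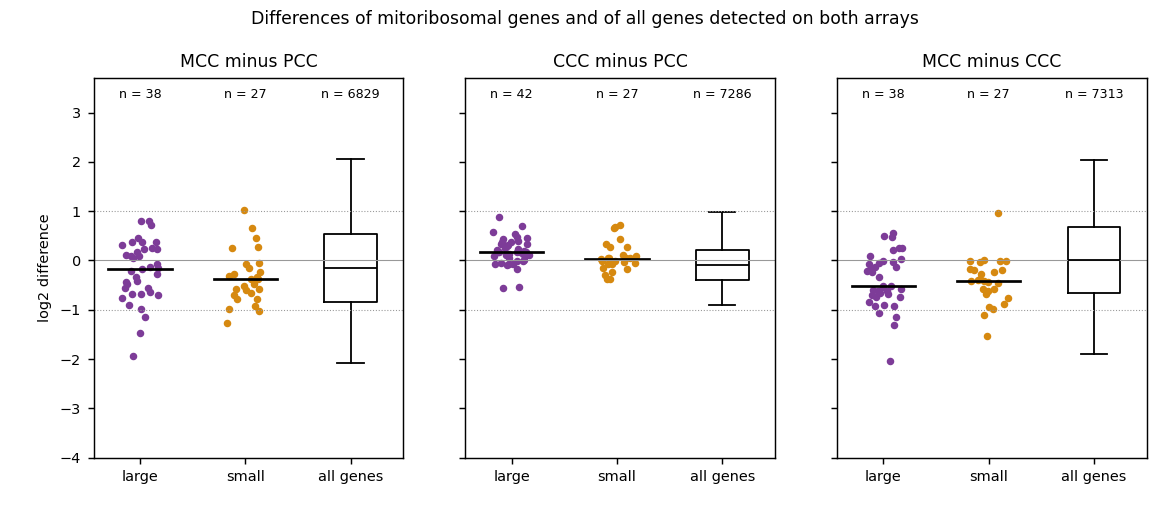
Log2 differences (vertical axis) of large and small subunit genes for each pair of arrays, 1 point per gene detected on both, with a bar at the median, beside a box for all such genes (quartiles, whiskers from the 5th to the 95th percentile, and dotted lines at 2-fold). The mitoribosomal points spread less than all genes, and their medians are -0.17 and -0.37 for MCC minus PCC, 0.17 and 0.03 for CCC minus PCC, and -0.52 and -0.41 for MCC minus CCC.

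The comparison of circulating with primary tumour cells sets cells that left the tumour against those still in it. Large subunit genes were slightly higher on CCC, and small subunit genes lay on either side of 0. Of 42 large subunit genes, 32 were higher and 10 lower. Their median log2 difference was 0.17, with quartiles of 0.02 and 0.33. Of 27 small subunit genes, 14 were higher and 13 lower, with a median of 0.03 and quartiles of -0.08 and 0.18. All 7286 genes detected on both arrays had a median of -0.10, and 40.5% were higher on CCC. Set against that median, 92.9% of the large and 77.8% of the small subunit genes lay above it. The median of the small subunit was -0.08 under 75th percentile scaling over all probes, where the median of all genes was -0.16.

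No member was 2-fold apart, 0 higher against 4.95% of all genes and 0 lower against 3.68%. At a size of 1.5-fold, chosen after the values were seen, 6 of 69 members were higher, against 10.4% of all genes, and 0 were lower, against 14.4%. The 6 were 3 of each subunit. Without normalization Mrpl36 passed 2-fold, the only member to do so under any alternative. Beside these values, 8 macrophage genes had a median log2 difference of 2.40 for CCC minus PCC, and their part was not tested.

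Mrpl36 was the highest of them at 1.83-fold, with the values given above. Mrps24, counterpart of a bacterial protein at the entry of the messenger, read 11.70 on MCC, 11.98 on CCC and 11.26 on PCC, 1.65-fold higher on CCC than on PCC. Mrpl3, whose bacterial counterpart reaches toward the peptidyl transferase centre, read 9.50 on MCC, 10.08 on CCC and 9.38 on PCC, 1.62-fold higher on CCC. Its second probe gave a log2 difference of 1.01 for CCC minus PCC. Mrps23 was 1.59-fold and Mrps21 1.57-fold higher on CCC, and the mitochondria-specific Mrpl42 was higher by 0.59 on the log2 scale. These 6 genes were higher on CCC under every alternative run.

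On the low side of CCC stood Mrpl1, lower by 0.55 on the log2 scale, and its second probe detected on both arrays gave -0.53. Mrpl39 was lower by 0.54 but dim. In the small subunit Mrps12, counterpart of the bacterial protein of the decoding centre, read 9.25 on MCC, 9.24 on CCC and 9.62 on PCC, lower on CCC by 0.38. Mrps35 was lower by 0.37 and Mrps10 by 0.29. Mrps9 was lower by 0.18, while Mrps2, lower by 0.24, and Mrps18c, lower by 0.14, were higher on CCC under at least 1 alternative.

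The comparison of metastatic with circulating cells sets lung against blood, and it has the most members on one side of 0. Of 65 members detected on both, 55 were lower and 10 higher on MCC, while 50.5% of all 7313 genes were higher. The median was -0.52 over 38 large and -0.41 over 27 small subunit genes, against 0.01 over all genes. Both subunits lay between 0.36 and 0.57 under the median of all genes by every alternative. The difference between their medians, -0.11, was 0.005 under both percentile scalings and without normalization, so the order of the subunits changed with the scaling. These values follow from the other comparisons, since they use the same 3 arrays.

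On MCC, 6 members were at least 2-fold lower than on CCC, against 16.6% of all genes, and 0 were at least 2-fold higher, against 17.3%. Mrpl13 was 4.11-fold lower, and its second probe gave a log2 difference of -2.61. Mrps5 was 2.91-fold lower by its chosen probe, a log2 difference of -1.54, while its second probe, detected on all arrays, gave -0.07. Mrpl22, which lines the exit tunnel, read 8.38 on MCC, 9.70 on CCC and 9.37 on PCC, 2.49-fold lower on MCC than on CCC. Mrpl42 was 2.21-fold, Mrps6 2.14-fold and Mrpl52 2.09-fold lower. At the other end Mrps34 was higher by 0.96 and Mrpl24 by 0.56, though both were lower on MCC than on CCC without normalization, by 0.13 and 0.43. Mrps34 was higher on MCC under each of the other scalings.

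**Figure D3:**
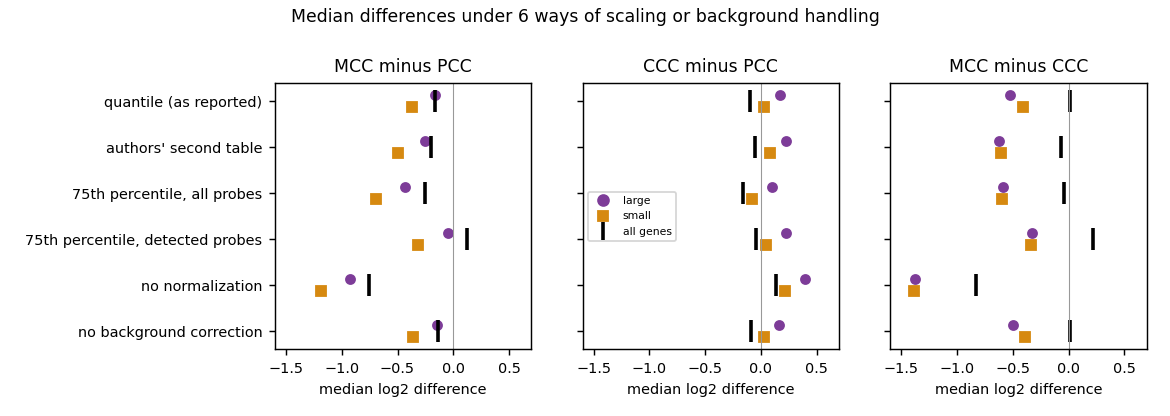
Median log2 difference (horizontal axis) of large subunit genes (circles), small subunit genes (squares) and all genes (bars) for each pair of arrays, 1 row for each way of scaling or handling background. The marks slide together along the axis between rows, down to -0.93 for the large and -1.19 for the small subunit in MCC minus PCC without normalization, while the large subunit stays to the right of the small one in MCC minus PCC and CCC minus PCC.

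How the arrays are brought to a common scale moves all genes together. Over the alternatives the median of all genes ran between -0.75 and 0.12 for MCC minus PCC, between -0.16 and 0.13 for CCC minus PCC and between -0.83 and 0.22 for MCC minus CCC. Of all genes at least 2-fold apart between MCC and PCC, 40.2% were higher on MCC, against 56.7% with the percentile of detected probes and 14.7% without normalization. For CCC and PCC that share was 57.4%, against 82.4% without normalization, and for MCC and CCC it was 51.0%, against 64.7% and 11.9%. Of the 65 members, 38 were lower on MCC than on PCC under every alternative, 2 (Mrps34 and Mrps23) were higher under every alternative, and 25 changed sign. For CCC against PCC, 37 of 69 were higher under every alternative, 6 lower under every alternative and 26 changed sign. For MCC against CCC, 45 of 65 were lower under every alternative, 0 higher and 20 changed sign. Single ways of scaling limit these counts. Without normalization 0 of 65 members were higher for MCC minus CCC and 3 for MCC minus PCC, and 6 of 69 were lower for CCC minus PCC. The counts of 38, 45 and 37 are limited by other scalings. With the percentile of detected probes 40 of 65 members were lower for MCC minus PCC and 46 for MCC minus CCC. With 75th percentile scaling over all probes 40 of 69 were higher for CCC minus PCC. The same counts were not made over all genes, so they do not set the members apart.

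Within each subunit, members with and without a bacterial counterpart differed in median by less than the subunits for MCC minus PCC, but not in every comparison. This split was not run under the alternatives. The 24 large subunit genes with bacterial counterparts had a median log2 difference of -0.20 and the 12 mitochondria-specific ones of -0.10. In the small subunit the medians were -0.51 over 14 genes with counterparts and -0.33 over 9 mitochondria-specific genes. The same split for CCC minus PCC gave 0.17 and 0.15 in the large subunit, over 26 and 14 genes, and -0.01 and 0.06 in the small subunit. For MCC minus CCC it gave -0.56 and -0.38 in the large subunit, over 24 and 12 genes, further apart than the subunit medians, and -0.42 and -0.42 in the small subunit. Moving Mrps30 and Mrps18a to the large subunit and leaving out Mrps36 gave a gap between subunit medians of 0.34 for MCC minus PCC, and averaging the probes of a gene gave 0.09.

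The functional sites of the large subunit hold few measured genes each. The stalk that calls elongation factors, with Mrpl10, Mrpl11 and Mrpl12, had a median of -0.08 for MCC minus PCC and of -0.02 for CCC minus PCC. Its lowest and highest genes were Mrpl11 at -0.44 and Mrpl12 at 0.23 for MCC minus PCC, and Mrpl10 at -0.04 and Mrpl11 at 0.17 for CCC minus PCC, and the signs of Mrpl10 and Mrpl12 changed under at least 1 alternative in both. Mrpl12, which also binds the mitochondrial RNA polymerase, read 10.95 on MCC, 10.71 on CCC and 10.72 on PCC. At the exit site of the nascent chain the median was -0.42 over 5 genes for MCC minus PCC and 0.18 over 6 genes for CCC minus PCC. Its lowest and highest genes were Mrpl22 at -0.99 and Mrpl24 at 0.72 (-0.09 without normalization) for MCC minus PCC, and Mrpl39 at -0.54 and Mrpl22 at 0.33 for CCC minus PCC. The 5 genes of the central protuberance, which faces the small subunit, had medians of -0.18 for MCC minus PCC and 0.26 for CCC minus PCC. Mrpl48 was lowest there in both, at -0.70 for MCC minus PCC and at -0.17 for CCC minus PCC, where its sign changed under an alternative. The highest were Mrpl46 at 0.09 for MCC minus PCC, whose sign also changed, and Mrpl18 at 0.53 for CCC minus PCC.

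Genes of several probes show how much a value depends on the probe. Of the 76 genes, 54 had 1 probe and 22 had several, up to 5. In MCC minus PCC, 15 genes had several probes detected on both arrays, and the median spread between probes of a gene was 0.49 on the log2 scale. In 5 of the 15 the probes took opposite signs, and in 1 they lay more than 1 apart, against 12.9% of all such genes. That gene was Mrps7, counterpart of a bacterial small subunit assembly protein, whose probes gave -0.49 and 0.56. Its brighter probe read 9.92 on MCC, 10.35 on CCC and 10.41 on PCC, and its dimmer probe 7.37, 7.78 and 6.81 on MCC, CCC and PCC. For CCC minus PCC, 18 genes had a median spread of 0.26, with Mrps7 again more than 1 apart, against 2.3% of all such genes. For MCC minus CCC the spread was 0.54 over 15 genes, with Mrps5 and Mrps18b more than 1 apart, against 17.3% of all such genes. Probes not detected on 1 array of a pair are left out of these counts, so they can understate disagreement. Mrpl3, Mrpl47 and Mrpl1 each had a second probe detected on CCC and PCC but not on MCC. For MCC minus PCC it gave -1.81 for Mrpl3, where the chosen probe gave 0.12. It gave -1.41 against -0.48 for Mrpl47, and -1.29 against -1.47 for Mrpl1.

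**Figure D4:**
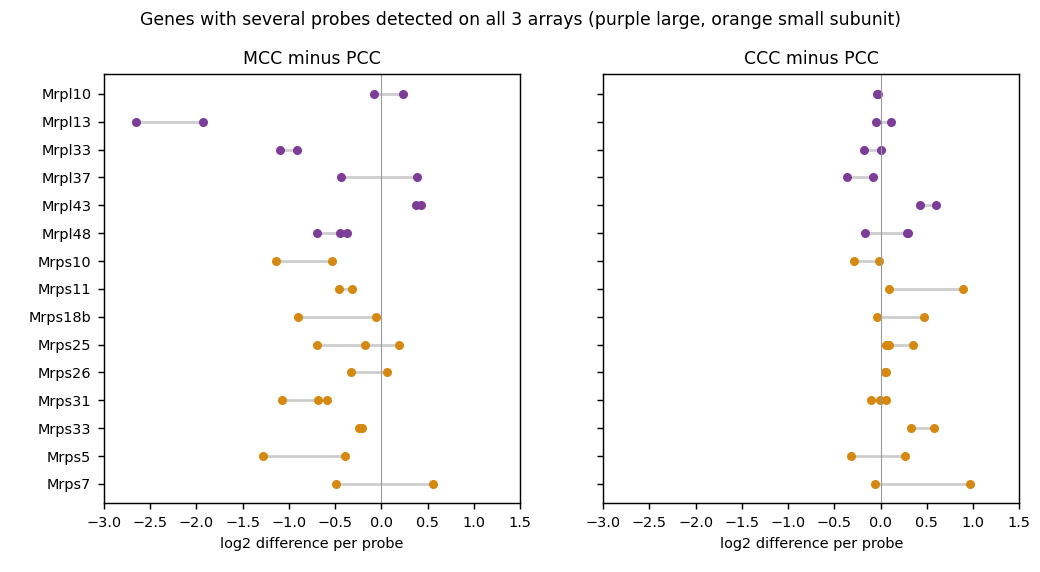
Log2 difference of each probe (horizontal axis) for the 15 mitoribosomal genes with several probes detected on all 3 arrays, large subunit in purple and small subunit in orange, with a line joining the probes of a gene. Both Mrpl13 probes stand far left in MCC minus PCC, at -2.65 and -1.93, while the probes of Mrps7 lie on either side of 0, at -0.49 and 0.56.

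Small subunit proteins that do not carry an Mrps name were also measured. Dap3, a GTP-binding protein of the small subunit, read 11.82 on MCC, 11.70 on CCC and 12.07 on PCC. Ptcd3, which binds RNA, read 8.03 on MCC, 8.26 on CCC and 8.54 on PCC. Chchd1 read 11.58 on MCC, 12.49 on CCC and 11.92 on PCC. All 3 were lower on MCC than on PCC, by 0.24 to 0.51, and on CCC Chchd1 was higher than on PCC by 0.57 while Dap3 and Ptcd3 were lower.

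Genes for proteins that work with the ribosome came from lists of textbook partners. Of 9 detected mitochondrial translation factors, 1 was at least 2-fold higher on MCC than on PCC and 2 at least 2-fold lower, with a list median of -0.09. The shares of all genes, 14.2% higher and 21.1% lower, apply to this and the following lists, whose counts lie near or under them. Tufm, which brings aminoacyl-tRNA to the ribosome, read 11.25 on MCC, 10.68 on CCC and 10.19 on PCC, 2.09-fold higher on MCC. Gfm1, which moves the ribosome along the messenger, read 5.89 on MCC, 7.03 on CCC and 7.14 on PCC, 2.38-fold lower on MCC and near background there. Mtrf1, a release factor family member, was 2.18-fold lower on MCC. None of the 9 was 2-fold apart between CCC and PCC, and Tufm had the highest value, 0.49.

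Of 15 detected genes for mitoribosome assembly and ribosomal RNA processing, 0 were at least 2-fold higher and 2 at least 2-fold lower on MCC than on PCC. The 2 were Rpusd4, a pseudouridine synthase, 2.21-fold lower, and Tfb1m, a methyltransferase of the small subunit RNA, 2.05-fold lower. Of 13 detected genes for mitochondrial transcription and RNA handling, 2 were at least 2-fold lower. These were Grsf1, an RNA granule protein, 2.62-fold, and Slirp, which stabilises mitochondrial messengers with Lrpprc, 2.11-fold. Among 10 detected mitochondrial aminoacyl-tRNA synthetases 1 was at least 2-fold higher, Wars2 for tryptophan, at 7.74 on MCC, 6.32 on CCC and 5.98 on PCC.

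The cytosolic ribosome lay nearer to the level of all genes than the mitoribosomal genes did as a whole. For MCC minus PCC the large subunit alone, at -0.17, was nearer still. Its 57 detected protein genes had medians of -0.08 for MCC minus PCC, 0.01 for CCC minus PCC and -0.03 for MCC minus CCC, beside -0.32, 0.12 and -0.42 for the mitoribosomal genes and -0.16, -0.10 and 0.01 for all genes. Cytosolic ribosomal genes have many processed pseudogenes, so their probes are uncertain. Some of them also lie at the top of the intensity range, where quantile normalization leaves little room for a difference. Rplp1, for example, read 15.07 on MCC and 15.19 on CCC and PCC, and 15.19 was the highest value on every array. The part of this in the list's medians was not tested. The difference between the lists has no test.

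**Figure D5:**
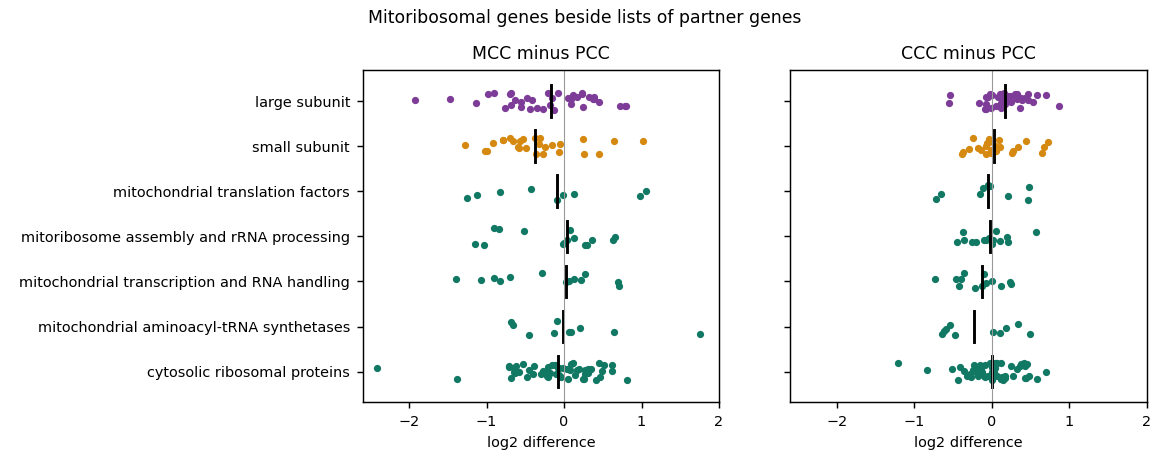
Log2 differences (horizontal axis) of the large and small subunit genes beside 5 lists of partner genes, 1 point per gene detected on both arrays, with a bar at each list's median. In CCC minus PCC the large subunit has the highest median, 0.17, and in MCC minus PCC the small subunit has the lowest, -0.37.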

How the data were processed

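RNA of sorted 4T1 cells was measured on Illumina mouse BeadChips, 1 array each for MCC, CCC and PCC. The authors deposited a non-normalized table holding, per the file headers, an average signal intensity and a detection p-value for each probe and array. GenomeStudio is named per the submitters' processing notes, with no version in the sources used here. Intensities fell below 0 for 24.0% of probes on MCC, 26.2% on CCC and 28.3% on PCC, so background had been subtracted. A second deposited table of intensities is a straight line of the first on each array, with slopes of 1.5267 for MCC, 0.8652 for CCC and 0.9256 for PCC, and served as an alternative.

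From the first table, neqc of limma 3.58.1 (R 4.3.3) gave background-corrected, quantile-normalized log2 intensities with an offset of 16. A probe was detected at a detection p under 0.01. Platform annotation named 23978 probes with 1 gene symbol and left 1719 unnamed. A gene was represented by its probe with the highest mean among those detected, and differences were read where both arrays detected the gene. Where 1 array did, a bound was computed against the higher of the lowest detected level on the array that missed the gene and the gene's own level there. With 1 array per group nothing was tested, and called means at least 2-fold. The array count limits the precision. Members and gene lists were chosen with earlier results of these data known. Members named are the 6 highest and lowest of each subunit in a comparison, those at least 2-fold apart, those bounded or undetected, those whose probes disagree, and the extremes of each list, and the text gives values for those that matter and summarises the rest. The steps were tested on simulated arrays of like brightness in which few genes changed, so that test does not bear on the choice of scaling. Alternatives changed the detection limit, background, scaling, table, probe choice and subunit assignment. Columns without a sample numbered 0.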

Additional observations from a re-analysis of the deposited data

How the results depend on the processing

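Across 11 alternatives, 143 of 165 comparisons of 15 summary values kept their direction and stayed within an interval, or for counts within 1.5 times. Another 18 moved and 4 changed sign, all under a change of scale or table. For medians the interval was a 95% rank interval over genes. For large minus small differences it was the reported value plus or minus a width combined from the rank intervals of both subunits. Genes are not replicates, so the interval does not measure spread between arrays. Under 75th percentile scaling over all probes, the small subunit median for MCC minus PCC was -0.69. In that comparison 0 members were at least 2-fold higher and 10 lower, against 817 and 1637 of all 6829 genes. For CCC minus PCC the medians were 0.10 (large) and -0.076 (small, a change of sign). For MCC minus CCC 10 members were at least 2-fold lower, against 1284 of all 7313 genes. The large minus small difference there was 0.005, a change of sign. The percentile of probes detected on all 3 arrays was chosen after seeing the data. With it, 0 members were at least 2-fold higher for MCC minus PCC, against 1316 of all 6829 genes. The large minus small difference for MCC minus CCC was 0.005. Without normalization, MCC minus PCC gave medians of -0.93 (large) and -1.19 (small). At 2-fold, 0 members were higher and 33 lower, against 473 and 2745 of all 6829 genes. CCC minus PCC gave 0.40 and 0.22 with 1 member higher, against 567 of all 7286 genes. MCC minus CCC gave -1.38 and -1.39, a large minus small difference of 0.005 and 53 members lower, against 3163 of all 7313 genes. The authors' second table gave 0 members higher for MCC minus PCC, against 881 of all 6830 genes. It gave 10 lower for MCC minus CCC, against 1362 of all 7314. Omitting normalization leaves array brightness in the values, and the cause of the other moves was not tested. Under the other alternatives no value left its interval or changed sign, but the interval is wide: the large minus small difference for MCC minus PCC, 0.20 as reported, was 0.09 with probes averaged and 0.34 with subunits by structure, and for MCC minus CCC, -0.11 as reported, it was -0.002 by structure. The 1.5-fold size was also chosen after seeing the data. No paired analysis was possible because each group is 1 array, and no array could be left out. Genes near background, such as Mrpl39, have bounds in place of differences.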
